A study of Mus musculus with 8 samples.

Results

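The loci described here are the microRNA (miRNA) genes of the mouse autosomes. All genes that the GENCODE annotation of mm9 (release M1) types as miRNA were taken, 1468 of the 34653 annotated autosomal genes, and each was read as a window of the gene span with 1 kb on each side. The gene lay wholly within the span of a protein-coding gene, on either strand, in 733 cases, called inside, and the other 735 were called outside, of which 6 crossed the end of a coding gene. The annotated spans had a median of 91 bp and the windows a median of 2091 bp. Neighbouring windows often overlapped, so that the 1468 windows formed 1234 merged windows, and 1 merged window held 108 genes.

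miRNA genes are transcribed as long primary RNAs that are cut first to a hairpin and then to a short mature strand, whose seed near the 5′ end pairs with target mRNAs. Many of them sit in introns of coding genes and are made from the host transcript, and others have promoters of their own, often several kilobases from the hairpin. 5-hydroxymethylcytosine (5hmC) is made by Tet enzymes from methylated cytosine, mostly at CpG, and is frequent in gene bodies and at distal regulatory sequence.

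5hmC was mapped by GLIB-Seq, in which the modified base is given a sugar. The sugar is then oxidised and joined to biotin, and the fragments holding it are captured and sequenced. The 6 libraries, 1 for each condition, came from ESCs of the E14 line, MEFs of C57BL/6 mice, brain and liver of C57BL/6 mice aged 8 weeks, and ESCs that were transfected with an shRNA against GFP (shGFP) or against Suz12 (shSuz12) and selected with puromycin. The labels give embryonic day 11 for the MEFs and the methods a later day, and which of the Suz12 hairpins served for GLIB-Seq was not stated. RNA-Seq samples of the shGFP and shSuz12 cells were not analysed here. Brain and liver are mixtures of cell types, so that the cells behind a peak are not known. The lists hold peaks without read counts, so the depth is unknown, and they end at different lowest scores, 80 in ESCs and liver, 50 in shGFP cells, 30 in MEFs and brain and just above 30 in shSuz12 cells. With 1 library a condition libraries were compared without a test. The 95% intervals below are exact ones (Clopper-Pearson) that cover counting error at most. They take each window as independent, but 297 genes lie in 63 merged windows with 2 or more genes and can share a peak. The intervals are thus too narrow, and a value within or beyond one is a description and not a test.

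A peak was found over miRNA windows inside and outside coding genes in every library. Of the 733 windows inside, at least 1 bp lay under a peak in 254 windows in ESCs (34.7%, 31.2 to 38.2%), 205 windows in MEFs (28.0%, 24.7 to 31.4%), 245 windows in brain (33.4%, 30.0 to 37.0%), 247 windows in liver (33.7%, 30.3 to 37.2%), 208 windows in shGFP cells (28.4%, 25.1 to 31.8%) and 180 windows in shSuz12 cells (24.6%, 21.5 to 27.8%). Tiles of 2091 bp laid end to end inside coding genes gave the background, and 27.5% in ESCs, 30.8% in MEFs, 31.7% in brain, 26.1% in liver, 20.3% in shGFP cells and 19.5% in shSuz12 cells of 434801 such tiles had a peak. The miRNA windows inside thus stood above the tiles in ESCs, liver, shGFP and shSuz12 cells, while in MEFs and brain the share of the tiles lay within the interval of the windows. The authors kept only uniquely mapped reads, and how far these reach into each window was not measured. A single cluster of 119 genes in 2 merged windows, within Sfmbt2, has few peaks and lowers the shares inside. Leaving this cluster out raises them by construction, while the tiles stay the same. Without it, the shares of 614 windows inside were 41.4% in ESCs, 33.4% in MEFs, 38.9% in brain, 39.3% in liver, 33.9% in shGFP cells and 29.3% in shSuz12 cells, above the tiles in all 6 lists, though in MEFs the tile share was still within the interval, and this removal was chosen after the values were seen.

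Outside coding genes, 191 windows in ESCs (26.0%, 22.8 to 29.3%), 173 windows in MEFs (23.5%, 20.5 to 26.8%), 123 windows in brain (16.7%, 14.1 to 19.6%), 123 windows in liver (16.7%, 14.1 to 19.6%), 166 windows in shGFP cells (22.6%, 19.6 to 25.8%) and 142 windows in shSuz12 cells (19.3%, 16.5 to 22.4%) of the 735 windows had a peak. Of the 674792 tiles wholly outside coding genes, 11.0% in ESCs, 16.7% in MEFs, 9.62% in brain, 6.28% in liver, 9.06% in shGFP cells and 8.18% in shSuz12 cells had one. All 6 lists therefore had a larger share of miRNA windows than of tiles outside genes, and the gap was narrowest in MEFs. Windows were placed by the miRNA gene alone, so the flanks of a window outside can reach into a coding gene, while these tiles cannot. What part this had in the gaps was not tested. Windows inside had the larger share in each list, but this order was not kept when the set of genes was changed, as given below.

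In bp, the windows inside carried a mean of 373 bp in ESCs, 244 in MEFs, 334 in brain, 365 in liver, 255 in shGFP cells and 160.5 in shSuz12 cells. Outside, the mean was 244 bp in ESCs, 175 in MEFs, 149 in brain, 180.1 in liver, 201 in shGFP cells and 121 in shSuz12 cells. With overlapping windows merged, peaks covered 256 kb in ESCs, 168 in MEFs, 231 in brain, 253 in liver, 178 in shGFP cells and 110.3 in shSuz12 cells of the windows inside, and 147 kb in ESCs, 107 in MEFs, 82.0 in brain, 103 in liver, 117 in shGFP cells and 71.6 in shSuz12 cells of those outside. These lengths move with how much was called in a list, and are best read against the same kind of sequence. Inside, they made up 19.8% in ESCs, 13.1% in MEFs, 17.9% in brain, 19.6% in liver, 13.8% in shGFP cells and 8.55% in shSuz12 cells of the window sequence, where peaks covered 12.2% in ESCs, 12.4% in MEFs, 14.6% in brain, 13.4% in liver, 7.78% in shGFP cells and 5.49% in shSuz12 cells of all coding gene spans. Outside, 10.4% in ESCs, 7.57% in MEFs, 5.80% in brain, 7.32% in liver, 8.30% in shGFP cells and 5.07% in shSuz12 cells of the window sequence was covered, against 4.41% in ESCs, 6.21% in MEFs, 3.91% in brain, 2.93% in liver, 3.27% in shGFP cells and 2.17% in shSuz12 cells of the rest of the autosomes. The ratio of windows to like sequence was lowest in MEFs on both sides, at 1.05 inside, 1.10 inside without the Sfmbt2 genes and 1.22 outside. Flanks can cross the ends of coding genes, so windows and like sequence match only roughly.

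Other short RNA genes were measured in the same way. Windows of the 542 snoRNA genes inside coding genes, which guide the modification of ribosomal RNA, had a peak in 31.2% of cases in ESCs, 32.5% in MEFs, 31.5% in brain, 45.9% in liver, 19.7% in shGFP cells and 18.6% in shSuz12 cells. For the 916 snoRNA genes outside, the shares were 10.8% in ESCs, 11.2% in MEFs, 8.08% in brain, 8.30% in liver, 7.42% in shGFP cells and 6.33% in shSuz12 cells. Windows of the 484 genes for snRNAs, the RNAs of the spliceosome, that lay inside had a peak in 28.9% of cases in ESCs, 25.6% in MEFs, 26.2% in brain, 28.3% in liver, 20.9% in shGFP cells and 21.1% in shSuz12 cells, and the 847 outside in 13.3% of cases in ESCs, 14.0% in MEFs, 7.91% in brain, 9.68% in liver, 10.6% in shGFP cells and 10.4% in shSuz12 cells. Outside coding genes the miRNA windows had a larger share than both kinds in all 6 lists, whereas inside the snoRNA windows were higher than the miRNA windows in liver. In MEFs the intervals of both overlapped inside, and without the Sfmbt2 genes the miRNA share was 33.4%. In liver the miRNA share without these genes was 39.3% (35.4 to 43.2%). Its interval then overlapped that of the snoRNA windows (41.7 to 50.2%). Neither CpG content nor mappability was measured for the snoRNA and snRNA windows, so what part these had in the gaps was not tested.

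The share depended on which annotated genes were counted. Symbols of 461 genes matched a miRNA gene of the RefSeq table, and the other 1007 genes mostly carried clone-based names. Among genes with a RefSeq symbol, the 273 inside had a peak in 35.5% of cases in ESCs, 27.5% in MEFs, 34.4% in brain, 34.8% in liver, 29.3% in shGFP cells and 24.9% in shSuz12 cells, and the 188 outside in 45.7% of cases in ESCs, 38.8% in MEFs, 35.6% in brain, 33.0% in liver, 38.8% in shGFP cells and 36.2% in shSuz12 cells. In this subset the windows outside had the larger share in all lists except liver, though the intervals of inside and outside overlapped in each list. A single cluster weighs on this comparison, since 71 of the 273 are miRNA genes within Sfmbt2, a Polycomb-related gene with a large miRNA cluster in an intron. Without these, the 202 genes left inside had a peak in 48.0% of cases in ESCs, 37.1% in MEFs, 45.0% in brain, 44.6% in liver, 39.6% in shGFP cells and 33.7% in shSuz12 cells, above the genes outside in all lists except MEFs and shSuz12 cells. Outside, the imprinted Dlk1-Dio3 region holds 43 of the 188 genes. With the genes of both clusters left out, the shares were 46.4% in ESCs, 35.2% in MEFs, 43.9% in brain, 44.4% in liver, 37.8% in shGFP cells and 32.7% in shSuz12 cells of 196 inside, and 42.8% in ESCs, 32.4% in MEFs, 38.6% in brain, 42.1% in liver, 35.9% in shGFP cells and 30.3% in shSuz12 cells of 145 outside, so that inside was the higher in every list and the intervals overlapped in each. Both removals were chosen after these values were seen. Among genes with RefSeq symbols the order of inside and outside thus turned on these clusters, with overlapping intervals throughout. Among the genes with other symbols, 34.1% in ESCs, 28.3% in MEFs, 32.8% in brain, 33.0% in liver, 27.8% in shGFP cells and 24.3% in shSuz12 cells of 460 inside and 19.2% in ESCs, 18.3% in MEFs, 10.2% in brain, 11.2% in liver, 17.0% in shGFP cells and 13.5% in shSuz12 cells of 547 outside had a peak.

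The place of the miRNA in its host was read for the genes inside. The 131 genes that overlap an annotated exon of the host had a peak in 53.4% of cases in ESCs, 38.9% in MEFs, 49.6% in brain, 55.7% in liver, 54.2% in shGFP cells and 38.2% in shSuz12 cells, and the 602 within introns in 30.6% of cases in ESCs, 25.6% in MEFs, 29.9% in brain, 28.9% in liver, 22.8% in shGFP cells and 21.6% in shSuz12 cells. All 119 Sfmbt2 genes are intron genes on the strand of their host, and without them 483 intron genes had a peak in 38.1% of cases in ESCs, 31.9% in MEFs, 36.0% in brain, 34.8% in liver, 28.4% in shGFP cells and 26.9% in shSuz12 cells. The intervals of exon and intron genes then overlapped in MEFs and shSuz12 cells. The windows of exon and intron genes held a median of 44 and 20 CpGs. Exon and intron genes of like CpG content were not compared, so what part CpG content had in the difference was not tested. By strand, the 533 genes read in the direction of the host had a peak in 33.2% of cases in ESCs, 27.8% in MEFs, 31.9% in brain, 32.8% in liver, 26.3% in shGFP cells and 25.5% in shSuz12 cells. The 200 on the opposite strand had one in 38.5% of cases in ESCs, 28.5% in MEFs, 37.5% in brain, 36.0% in liver, 34.0% in shGFP cells and 22.0% in shSuz12 cells. Without the Sfmbt2 genes the 414 left on the strand of the host had a peak in 42.8% of cases in ESCs, 35.7% in MEFs, 39.6% in brain, 40.8% in liver, 33.8% in shGFP cells and 32.9% in shSuz12 cells, so that leaving out this cluster turned the order of the strands in ESCs, MEFs, brain and liver. The intervals of both strands overlapped in every list, with and without it.

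The percentage of the miRNA window under peaks was set beside that of the rest of its host gene. Among 723 genes with enough host sequence left, the means were 18.1% in ESCs, 11.3% in MEFs, 16.1% in brain, 17.2% in liver, 12.4% in shGFP cells and 7.61% in shSuz12 cells of the window covered and 15.8% in ESCs, 13.2% in MEFs, 16.1% in brain, 16.0% in liver, 10.3% in shGFP cells and 7.07% in shSuz12 cells of the rest of the host. Without the Sfmbt2 genes, which share 1 host, the means over 604 genes were 21.7% in ESCs, 13.5% in MEFs, 19.0% in brain, 20.4% in liver, 14.8% in shGFP cells and 9.11% in shSuz12 cells for windows and 18.6% in ESCs, 14.5% in MEFs, 17.5% in brain, 19.1% in liver, 12.0% in shGFP cells and 8.27% in shSuz12 cells for hosts. By count of genes, the window was below the rest of the host in 352 in ESCs, 394 in MEFs, 357 in brain, 319 in liver, 367 in shGFP cells and 409 in shSuz12 cells of these 604 and above it in 201 in ESCs, 152 in MEFs, 183 in brain, 175 in liver, 174 in shGFP cells and 141 in shSuz12 cells. A window without a peak is below any host that has one, so the count depends on length, and no difference between window and host is read from these values.

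The position of peaks was read at 21 places along the window. Outside coding genes, 13.3% in ESCs, 8.57% in MEFs, 8.30% in brain, 8.98% in liver, 10.9% in shGFP cells and 7.76% in shSuz12 cells of the genes had a peak over the middle of the miRNA gene. At 1000 bp upstream, read on the miRNA strand, the shares were 11.6% in ESCs, 8.03% in MEFs, 5.31% in brain, 6.80% in liver, 8.44% in shGFP cells and 4.76% in shSuz12 cells, and at 1000 bp downstream 10.2% in ESCs, 9.52% in MEFs, 6.67% in brain, 8.30% in liver, 7.48% in shGFP cells and 4.22% in shSuz12 cells. The middle was thus above both ends in every list except MEFs, where the downstream end was higher, and the highest places were 13.5% 100 bp upstream in ESCs, 9.52% 1000 bp downstream in MEFs, 8.57% 100 bp upstream in brain, 9.66% 200 bp downstream in liver, 11.7% 100 bp upstream in shGFP cells and 7.76% at the middle in shSuz12 cells. Inside coding genes the middle had 17.7% in ESCs, 9.82% in MEFs, 16.9% in brain, 18.0% in liver, 12.3% in shGFP cells and 7.78% in shSuz12 cells, against 17.5% in ESCs, 12.7% in MEFs, 16.5% in brain, 16.9% in liver, 11.5% in shGFP cells and 8.32% in shSuz12 cells at 1000 bp upstream and 16.5% in ESCs, 12.7% in MEFs, 15.1% in brain, 18.4% in liver, 11.7% in shGFP cells and 6.96% in shSuz12 cells at 1000 bp downstream. There the middle was above both ends in ESCs, brain and shGFP cells, below both in MEFs, and between them in liver and shSuz12 cells. The highest places inside were 19.0% 300 bp upstream in ESCs, 13.0% 800 bp downstream in MEFs, 16.9% at the middle in brain, 19.1% 100 bp downstream in liver, 13.6% 700 bp upstream in shGFP cells and 9.55% at both 800 and 900 bp upstream in shSuz12 cells. Inside coding genes brain was thus the only list with its highest share at the middle. Its share was 16.6% at 800 bp upstream and 100 bp downstream, so this place is not set apart. Without the Sfmbt2 genes the highest places were the same. The annotated hairpin itself was touched by a peak for 240 genes in ESCs, 149 in MEFs, 195 in brain, 212 in liver, 180 in shGFP cells and 124 in shSuz12 cells of 1468.

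The number of CpGs in the window went with the share in all lists. In the lowest of 4 classes, with up to 14 CpGs, 3.21% in ESCs, 9.36% in MEFs, 8.02% in brain, 7.49% in liver, 4.01% in shGFP cells and 5.08% in shSuz12 cells of 374 windows had a peak, and 2.44% in ESCs, 7.22% in MEFs, 4.19% in brain, 4.29% in liver, 2.14% in shGFP cells and 2.17% in shSuz12 cells of the tiles in that class. In the highest class, with 33 CpGs or more, the shares were 60.0% in ESCs, 45.3% in MEFs, 40.3% in brain, 41.9% in liver, 52.8% in shGFP cells and 45.3% in shSuz12 cells of 360 windows, and 61.3% in ESCs, 50.3% in MEFs, 48.7% in brain, 35.0% in liver, 50.1% in shGFP cells and 45.5% in shSuz12 cells of the tiles. In the second class the shares were 17.2% in ESCs, 15.9% in MEFs, 19.0% in brain, 19.8% in liver, 12.0% in shGFP cells and 10.2% in shSuz12 cells of windows, and 15.9% in ESCs, 26.3% in MEFs, 20.6% in brain, 16.4% in liver, 11.9% in shGFP cells and 11.5% in shSuz12 cells of tiles. In the third they were 43.1% in ESCs, 34.0% in MEFs, 34.3% in brain, 32.9% in liver, 35.1% in shGFP cells and 28.9% in shSuz12 cells of windows, and 43.5% in ESCs, 47.2% in MEFs, 42.1% in brain, 29.4% in liver, 31.8% in shGFP cells and 29.5% in shSuz12 cells of tiles. Part of the gaps in these classes rests on the Sfmbt2 genes. Inside and without them, the shares were 32.1% in ESCs, 23.1% in MEFs, 35.1% in brain, 37.3% in liver, 17.9% in shGFP cells and 14.2% in shSuz12 cells of windows in the second class, against 21.0% in ESCs, 30.8% in MEFs, 31.3% in brain, 26.7% in liver, 14.5% in shGFP cells and 14.8% in shSuz12 cells of tiles inside. In the third they were 56.7% in ESCs, 43.3% in MEFs, 50.7% in brain, 51.3% in liver, 40.7% in shGFP cells and 36.7% in shSuz12 cells of windows, against 50.5% in ESCs, 50.6% in MEFs, 54.1% in brain, 40.2% in liver, 35.9% in shGFP cells and 33.7% in shSuz12 cells of tiles. The windows then stood above the tiles beyond the interval in ESCs and liver in the second class and in liver in the third, and the tile share lay within the interval in the other lists. This removal was chosen after the values were seen, and the tiles were kept, so it raises the windows by construction. With these genes kept, the shares inside were 19.8% in ESCs and 25.8% in liver in the second class and 42.1% in liver in the third. The tile share then lay within each of these intervals, so no excess is read here. Outside, MEF windows of the third class stood below the tiles and shGFP windows above, both beyond the interval (32.3% against 43.4% and 37.1% against 27.4%), so the larger share of MEF windows than of tiles outside genes was not kept in this class. MEF windows of the second class were also lower (18.0% against 22.8%), as were brain windows of the third (26.3% against 29.2%). In both the tile share lay within the interval. miRNA windows had a median of 21 CpGs and tiles of 14, and within the highest class the miRNA windows stood below the tiles in brain and above them in liver, and in the other lists the tile share lay within the interval of the windows. Split by place, 62.8% in ESCs, 47.1% in MEFs, 49.2% in brain, 50.8% in liver, 59.7% in shGFP cells and 49.7% in shSuz12 cells of the 191 windows inside with 33 CpGs or more had a peak, against 73.9% in ESCs, 58.0% in MEFs, 63.2% in brain, 48.2% in liver, 59.8% in shGFP cells and 54.9% in shSuz12 cells of such tiles. Outside, 56.8% in ESCs, 43.2% in MEFs, 30.2% in brain, 32.0% in liver, 45.0% in shGFP cells and 40.2% in shSuz12 cells of 169 windows had one, against 45.2% in ESCs, 40.5% in MEFs, 30.1% in brain, 18.2% in liver, 37.8% in shGFP cells and 33.4% in shSuz12 cells of tiles. At this CpG content windows inside stood below the tiles in ESCs, MEFs and brain, and windows outside stood above them most clearly in ESCs and liver and not in brain. The classes are wide, so CpG content was matched only roughly. Flanks of windows outside can also reach into coding genes, unlike the tiles outside.

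Over the 4 cell types, 97 of 1468 windows (6.61%, 5.39 to 8.00%) had a peak in ESCs, MEFs, brain and liver alike, and 3.46% of all 1109593 tiles did. The lists end at different scores, so which windows are shared or alone also depends on these. At a score of at least 80, 26 windows (1.77%) had a peak in all 4 cell types, and tiles were not counted at that score. None of the 4 lists had a peak in 742 windows (50.5%), and in 62.7% of tiles. A peak in ESCs alone was found in 71 windows (4.84%, tiles 3.44%), in MEFs alone in 69 (4.70%, tiles 6.85%), in brain alone in 52 (3.54%, tiles 3.53%) and in liver alone in 64 (4.36%, tiles 2.68%). Windows lie inside coding genes more often than tiles do, so these shares were also split by place. No peak in the 4 lists was found for 42.8% of windows inside (39.2 to 46.5%) against 44.6% of tiles, and for 58.2% of windows outside (54.6 to 61.8%) against 74.4% of tiles. A peak in all 4 was found for 10.1% of windows inside (8.01 to 12.5%) against 6.88% of tiles, and for 3.13% of windows outside (1.99 to 4.66%) against 1.25% of tiles. A peak in ESCs alone was found for 3.96% of windows inside (2.67 to 5.63%) against 4.06% of tiles, and for 5.71% of windows outside (4.15 to 7.65%) against 3.04% of tiles. In liver alone one was found for 5.18% of windows inside (3.69 to 7.05%) against 4.55% of tiles, and for 3.54% outside (2.32 to 5.14%) against 1.48%. In MEFs alone these were 4.23% inside (2.89 to 5.95%) against 6.55%, and 5.17% outside (3.68 to 7.03%) against 7.05%. In brain alone they were 4.91% inside (3.46 to 6.73%) against 5.51%, and 2.18% outside (1.25 to 3.51%) against 2.26%. A larger share outside than in tiles was thus not particular to ESCs. The Sfmbt2 genes have few peaks, so leaving them out, a choice made after the values were seen, moves the shares inside by construction. Without the Sfmbt2 genes no peak was found for 33.7% of windows inside (30.0 to 37.6%) against 44.6% of tiles, a peak in all 4 for 12.1% of windows inside (9.58 to 14.9%) against 6.88% of tiles, and a peak in ESCs alone for 4.72% of windows inside (3.19 to 6.71%) against 4.06% of tiles. A peak in MEFs alone was then found for 5.05% of windows inside (3.46 to 7.09%) against 6.55% of tiles. Windows with a peak in all 4 had a median of 36 CpGs and windows with none a median of 17. Counting all 6 lists, 67 genes had a peak in each and 679 in none.

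As a reference for the families below, 445 windows in ESCs, 378 in MEFs, 368 in brain, 370 in liver, 374 in shGFP cells and 322 in shSuz12 cells of all 1468 had a peak, which is 30.3% in ESCs, 25.7% in MEFs, 25.1% in brain, 25.2% in liver, 25.5% in shGFP cells and 21.9% in shSuz12 cells. Family counts in MEFs, brain, shGFP and shSuz12 cells also rest on peaks with scores that the ESC and liver lists do not reach down to, so such counts alone do not rank the lists. With a score of at least 80 required, 15.6% in MEFs, 13.1% in brain, 19.2% in shGFP cells and 8.46% in shSuz12 cells of windows inside had a peak. Outside, the shares were then 8.98% in MEFs, 3.81% in brain, 16.2% in shGFP cells and 4.08% in shSuz12 cells. Counts in ESCs and liver are the same at that score. The families were listed by role, every member was counted, and the members named were chosen with their values known. Among miRNAs of pluripotent cells, the miR-290 cluster is the main miRNA product of mouse ESCs and promotes their rapid cycle. Its 7 genes form 1 merged window, and all 7 had a peak in liver and none in the other 5 lists. Mir290 (chr7:3218627-3218709, plus strand, mm9) was covered over 2083 bp in liver, by a peak with a score of 878, and Mir295 at the other end over 345 bp. The miR-302/367 cluster, which shares a seed with several miR-290 members and lies in an intron of Larp7, had no peak over its 5 genes in any list. ESCs thus had no called peak over either cluster, whatever the coverage of their promoters, which was not measured here.

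The miR-17-92 cluster and its relative miR-106b-25 promote proliferation, and some of their members carry a seed shifted by 1 base from that of miR-302. The 2 clusters hold 9 genes in 2 merged windows. A peak lay over 3 in ESCs, 2 in MEFs, 9 in brain, 9 in liver, 3 in shGFP cells and 3 in shSuz12 cells. Scores of at least 80 left 0 in MEFs, 6 in brain, 1 in shGFP cells and 3 in shSuz12 cells. Over Mir17 (chr14:115442893-115442976, plus strand) peaks covered 0 bp in ESCs, 0 in MEFs, 1274 in brain, 1136 in liver, 0 in shGFP cells and 0 in shSuz12 cells. Over Mir106b, in an intron of the replication gene Mcm7 (chr5:138606965-138607046, minus strand), they covered 1386 bp in ESCs, 0 in MEFs, 1265 in brain, 1342 in liver, 753 in shGFP cells and 704 in shSuz12 cells. Over the other genes of miR-17-92 the coverage in MEFs was 206 bp or less. To show how close the products of these loci are, the mature strands are printed in groups with a shared seed (bases 2 to 8 in capitals), from the RefSeq sequences of GRCm38.p6. The first 4 lines are miR-290 and miR-302 members, and the last 4 come from miR-17-92 and miR-106b-25.
mmu-miR-291a-3p: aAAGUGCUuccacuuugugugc
mmu-miR-294-3p: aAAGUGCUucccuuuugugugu
mmu-miR-302b-3p: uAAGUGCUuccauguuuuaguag
mmu-miR-302d-3p: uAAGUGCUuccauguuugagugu
mmu-miR-17-5p: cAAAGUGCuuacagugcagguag
mmu-miR-20a-5p: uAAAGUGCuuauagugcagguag
mmu-miR-93-5p: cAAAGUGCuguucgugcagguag
mmu-miR-106b-5p: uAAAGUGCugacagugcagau

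miRNAs of the Hox clusters, which target Hox mRNAs and lie among genes that Polycomb keeps silent in ESCs, had peaks in the ESC-derived lists alone. Of 6 genes, 3 had a peak in ESCs, 5 in shGFP cells, 3 in shSuz12 cells and none in MEFs, brain or liver, and at a score of at least 80 3 in ESCs, 0 in MEFs, 0 in brain, 0 in liver, 4 in shGFP cells and 0 in shSuz12 cells. The shares over all windows were 25.7% in MEFs, 25.1% in brain and 25.2% in liver. With 6 genes the lack of a peak in any 1 of these lists cannot be told apart from them. Differences between the lists were not tested. Mir10b, in an intron of Hoxd4 (chr2:74564127-74564194, plus strand), was covered over 1722 bp in ESCs, 0 in MEFs, 0 in brain, 0 in liver, 1463 in shGFP cells and 383 in shSuz12 cells. Mir196a-1, between Hoxb genes (chr11:96126478-96126579, plus strand), was covered over 1286 bp in ESCs, 0 in MEFs, 0 in brain, 0 in liver, 885 in shGFP cells and 904 in shSuz12 cells. Mir196a-2, in the Hoxc cluster (chr15:102803772-102803881, plus strand), was covered over 756 bp in ESCs, 0 in MEFs, 0 in brain, 0 in liver, 856 in shGFP cells and 490 in shSuz12 cells. In shSuz12 cells the peaks over these 3 windows had scores of 45.3, 76.2 and 49.4, below the lowest score of the ESC list. Mir196b, in an exon of Hoxa9, had a peak in shGFP cells only, over 655 bp. The mature strands have 1 seed for miR-10b and another for miR-196, in capitals as above.
mmu-miR-10b-5p: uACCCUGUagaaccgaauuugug
mmu-miR-196a-5p: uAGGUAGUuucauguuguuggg
mmu-miR-196b-5p: uAGGUAGUuuccuguuguuggg

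Of the 461 genes with a RefSeq symbol, 334 held a RefSeq hairpin in their mm9 sequence. The DNA of the loci just named shows which CpGs lie in the miRNA gene itself. The mm9 sequence of the annotated gene is given for the 3 Hox miRNAs with a peak in ESCs and for Mir290 and Mir17, read on the miRNA strand with each CpG in capitals. They hold 2, 2, 4, 4 and 0 CpGs, respectively, and in Mir17, with none, the hairpin still lay under peaks of brain and liver.
Mir10b: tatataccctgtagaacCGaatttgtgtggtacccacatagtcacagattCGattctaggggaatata
Mir196a-1: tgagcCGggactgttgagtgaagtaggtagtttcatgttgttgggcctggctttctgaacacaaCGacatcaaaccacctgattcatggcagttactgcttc
Mir196a-2: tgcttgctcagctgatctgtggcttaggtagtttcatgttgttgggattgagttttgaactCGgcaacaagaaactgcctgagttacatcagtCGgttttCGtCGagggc
Mir290: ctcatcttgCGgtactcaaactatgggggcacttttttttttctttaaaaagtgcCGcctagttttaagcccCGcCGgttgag
Mir17: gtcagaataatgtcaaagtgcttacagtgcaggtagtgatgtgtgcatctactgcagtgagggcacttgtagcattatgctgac

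let-7 miRNAs, which accumulate on differentiation and repress Lin28 and Hmga2, have 7 genes here. Of these, 2 in ESCs, 2 in MEFs, 3 in brain, 4 in liver, 1 in shGFP cells and 2 in shSuz12 cells had a peak, which with 7 genes cannot be told apart from the shares over all windows. A score of at least 80 was reached for 2 in MEFs, 2 in brain, 0 in shGFP cells and 0 in shSuz12 cells. Mirlet7b (chr15:85537749-85537833, plus strand) was covered over 1292 bp in ESCs, 0 in MEFs, 1906 in brain, 2037 in liver, 0 in shGFP cells and 0 in shSuz12 cells, and its neighbour Mirlet7c-2 over 1453 bp in ESCs, 0 in MEFs, 1460 in brain, 1627 in liver, 0 in shGFP cells and 0 in shSuz12 cells. Mirlet7g, in an intron of Wdr82 (chr9:106081171-106081258, plus strand), was covered over 0 bp in ESCs, 0 in MEFs, 271 in brain, 2045 in liver, 740 in shGFP cells and 299 in shSuz12 cells. Of the other 4 genes 2 had a peak in MEFs alone, 1 in liver and shSuz12 cells, and 1 in no list. Both let-7 strands of the first pair have the same seed.
mmu-let-7b-5p: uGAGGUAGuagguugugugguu
mmu-let-7c-5p: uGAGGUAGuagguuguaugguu

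Mir9-2, of a family that drives neural progenitors to differentiate (chr13:83878411-83878497, plus strand), was covered over 521 bp in ESCs, 0 in MEFs, 0 in brain, 0 in liver, 1423 in shGFP cells and 0 in shSuz12 cells. The 2 annotated miR-124 genes, of the most abundant neuronal miRNA, had no peak in any list. Of 12 other genes of brain miRNAs, 5 in ESCs, 4 in MEFs, 3 in brain, 3 in liver, 5 in shGFP cells and 5 in shSuz12 cells had a peak, and for brain this is the share over all windows. Scores of at least 80 left 0 in MEFs, 0 in brain, 3 in shGFP cells and 2 in shSuz12 cells. Mir219-2, of a family that acts in oligodendrocyte maturation, was covered over 1068 bp in ESCs, 0 in MEFs, 1109 in brain, 1869 in liver, 1921 in shGFP cells and 741 in shSuz12 cells. Mir153, in an intron of Ptprn2, was covered over 1494 bp in ESCs, 0 in MEFs, 740 in brain, 0 in liver, 1369 in shGFP cells and 0 in shSuz12 cells. Mir338, in an intron of Aatk, was covered over 2040 bp in ESCs, 304 in MEFs, 0 in brain, 980 in liver, 897 in shGFP cells and 579 in shSuz12 cells. With 12 genes these counts do not set the group apart from all miRNA windows.

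Of 5 genes of hepatocyte miRNAs, 4 in ESCs, 1 in MEFs, 3 in brain, 2 in liver, 4 in shGFP cells and 3 in shSuz12 cells had a peak, and at a score of at least 80 4 in ESCs, 0 in MEFs, 1 in brain, 2 in liver, 2 in shGFP cells and 0 in shSuz12 cells. Mir122a, the dominant miRNA of hepatocytes, had no peak in liver, and its window was covered over 730 bp in shGFP cells alone. Mir192 (chr19:6264844-6264932, plus strand) was covered over 1998 bp in ESCs, 0 in MEFs, 1230 in brain, 0 in liver, 1865 in shGFP cells and 770 in shSuz12 cells. Mir194-1, in an intron of Iars2 on the opposite strand, was covered over 1506 bp in ESCs, 0 in MEFs, 1989 in brain, 1493 in liver, 174 in shGFP cells and 0 in shSuz12 cells. The miR-29 family, which represses collagens and Dnmt3 enzymes, has 4 genes, of which 2 in ESCs, 2 in MEFs, 2 in brain, 4 in liver, 0 in shGFP cells and 0 in shSuz12 cells had a peak, and at a score of at least 80 2 in ESCs, 2 in MEFs, 0 in brain, 4 in liver, 0 in shGFP cells and 0 in shSuz12 cells. Mir29a was covered over 678 bp in ESCs, 2055 in MEFs, 1055 in brain, 2088 in liver, 0 in shGFP cells and 0 in shSuz12 cells, and Mir29c over 0 bp in ESCs, 0 in MEFs, 0 in brain, 1180 in liver, 0 in shGFP cells and 0 in shSuz12 cells.

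Among miRNAs of mesenchymal cells, Mir21, in an exon of Vmp1 (chr11:86397569-86397660, minus strand) and induced in growing and fibrotic tissue, was covered over 0 bp in ESCs, 2058 in MEFs, 662 in brain, 162 in liver, 0 in shGFP cells and 0 in shSuz12 cells. The MEF peak had a score of 2115. Mir199a-1, on the strand opposite to Dnm2, was covered in all lists, over 1434 bp in ESCs, 1334 in MEFs, 836 in brain, 1210 in liver, 1459 in shGFP cells and 964 in shSuz12 cells. Mir143, which together with Mir145 supports the smooth muscle state, was covered over 2053 bp in ESCs, 1379 in MEFs, 942 in brain, 285 in liver, 1474 in shGFP cells and 582 in shSuz12 cells. Of the 6 genes of this group 4 in ESCs, 5 in MEFs, 5 in brain, 4 in liver, 3 in shGFP cells and 3 in shSuz12 cells had a peak, and at a score of at least 80 4 in ESCs, 4 in MEFs, 1 in brain, 4 in liver, 3 in shGFP cells and 1 in shSuz12 cells.

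Muscle and blood miRNAs were listed as those of other cells that a tissue could hold. Of 8 muscle genes, 3 in ESCs, 1 in MEFs, 3 in brain, 2 in liver, 2 in shGFP cells and 2 in shSuz12 cells had a peak, near the shares over all windows in liver, shGFP and shSuz12 cells. A score of at least 80 was reached for 1 in MEFs, 1 in brain, 0 in shGFP cells and 1 in shSuz12 cells. Mir206, of skeletal muscle, had 1100 bp in MEFs and no peak elsewhere, and Mir499, in an intron of the myosin gene Myh7b, had 2079 bp in ESCs, 0 in MEFs, 139 in brain, 129 in liver, 861 in shGFP cells and 931 in shSuz12 cells. Of 7 genes of blood cell miRNAs, 4 in ESCs, 2 in MEFs, 3 in brain, 4 in liver, 1 in shGFP cells and 1 in shSuz12 cells had a peak. Scores of at least 80 left 0 in MEFs, 0 in brain, 1 in shGFP cells and 1 in shSuz12 cells. Mir142, a general miRNA of blood cells, was covered in ESC-derived lists alone, over 1654 bp in ESCs, 0 in MEFs, 0 in brain, 0 in liver, 1001 in shGFP cells and 1228 in shSuz12 cells. Mir451 and Mir144 of red cells had 1490 bp each in liver, 425 and 590 bp in ESCs, and no peak in the other lists. What part other cells of the tissues had in these peaks was not tested.

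Several genes with peaks in most lists were picked by their values. Of the 5 genes of miR-23, miR-27 and miR-24, 5 in ESCs, 3 in MEFs, 5 in brain, 5 in liver, 5 in shGFP cells and 5 in shSuz12 cells had a peak. Scores of at least 80 left 0 in MEFs, 2 in brain, 5 in shGFP cells and 4 in shSuz12 cells. Mir23a, of a cluster with roles in blood vessels and muscle (chr8:86732417-86732491, plus strand), had 2075 bp in ESCs, 57 in MEFs, 1377 in brain, 1374 in liver, 1845 in shGFP cells and 1707 in shSuz12 cells. The related Mir23b had 1706 bp in ESCs, 1458 in MEFs, 1978 in brain, 1755 in liver, 1373 in shGFP cells and 586 in shSuz12 cells. Of the 6 genes of miR-34 and miR-449, 3 in ESCs, 1 in MEFs, 3 in brain, 1 in liver, 3 in shGFP cells and 1 in shSuz12 cells had a peak. With the score limit these were 0 in MEFs, 0 in brain, 3 in shGFP cells and 0 in shSuz12 cells. Mir34a, a target of p53, had 1674 bp in ESCs, 1674 in MEFs, 1564 in brain, 1052 in liver, 1326 in shGFP cells and 904 in shSuz12 cells, and its hairpin lay wholly under peaks in all 6 lists. Of the 4 genes of miR-99, miR-100 and miR-125, 2 in ESCs, 3 in MEFs, 2 in brain, 2 in liver, 2 in shGFP cells and 2 in shSuz12 cells had a peak. With the score limit these were 3 in MEFs, 0 in brain, 2 in shGFP cells and 0 in shSuz12 cells. Mir125a and Mir99b, next to each other, had between 843 and 1502 bp in every list. Of the 5 genes of the epithelial miR-200 family 5 in ESCs, 2 in MEFs, 2 in brain, 5 in liver, 2 in shGFP cells and 3 in shSuz12 cells had a peak, and at a score of at least 80 5 in ESCs, 2 in MEFs, 0 in brain, 5 in liver, 2 in shGFP cells and 0 in shSuz12 cells. Mir141 of this family had 1816 bp in ESCs, 839 in MEFs, 828 in brain, 2072 in liver, 1576 in shGFP cells and 387 in shSuz12 cells. By contrast miR-449, of ciliated cells, had no peak over its 3 genes in any list.

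Among families of broad expression, miR-15 and miR-16 restrain the cell cycle, and of their 4 genes 2 in ESCs, 0 in MEFs, 4 in brain, 2 in liver, 2 in shGFP cells and 2 in shSuz12 cells had a peak. A score of at least 80 was reached for 2 in brain, 2 in shGFP cells and 0 in shSuz12 cells. Mir195 of this family had 1802 bp in ESCs, 0 in MEFs, 2094 in brain, 1867 in liver, 883 in shGFP cells and 1123 in shSuz12 cells. Of the 6 genes of miR-30, a family active in many differentiated tissues, 1 in ESCs, 0 in MEFs, 3 in brain, 2 in liver, 0 in shGFP cells and 1 in shSuz12 cells had a peak, and Mir30a had 0 bp in ESCs, 0 in MEFs, 1124 in brain, 1232 in liver, 0 in shGFP cells and 337 in shSuz12 cells. Scores of at least 80 left 0 of the miR-30 genes with a peak in brain and 0 in shSuz12 cells. The miR-181 family tunes lymphocyte signalling, and of its 6 genes 2 in ESCs, 2 in MEFs, 0 in brain, 0 in liver, 2 in shGFP cells and 2 in shSuz12 cells had a peak. A score of at least 80 was reached for 2 in MEFs, 0 in shGFP cells and 0 in shSuz12 cells. Mir181a-1 had 641 bp in ESCs, 1105 in MEFs, 0 in brain, 0 in liver, 0 in shGFP cells and 468 in shSuz12 cells. None of the 16 genes of these 3 families had a peak in all 6 lists. Over all windows 4.56% had one in each, so with 16 genes this is near that share.

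The imprinted Dlk1-Dio3 region holds 57 miRNA genes in 15 merged windows, most of them transcribed from the maternal chromosome. Peaks lay over 37 genes in ESCs, 37 in MEFs, 17 in brain, 5 in liver, 33 in shGFP cells and 35 in shSuz12 cells. Of the 15 merged windows, 10 in ESCs, 9 in MEFs, 4 in brain, 3 in liver, 10 in shGFP cells and 10 in shSuz12 cells had one. By locus the lists thus differed less than by gene. At a score of at least 80 the counts of genes were 37 in ESCs, 10 in MEFs, 0 in brain, 5 in liver, 31 in shGFP cells and 7 in shSuz12 cells. The ESC and liver lists end at this score, so their counts could not fall. Of all autosomal peaks, 34.2% in MEFs, 21.1% in brain, 56.1% in shGFP cells and 17.0% in shSuz12 cells reach it. No list is therefore said to keep more of these peaks. Mir127, antisense to Rtl1, was covered over 1655 bp in ESCs, 1587 in MEFs, 0 in brain, 0 in liver, 1357 in shGFP cells and 1084 in shSuz12 cells. The Sfmbt2 cluster stood at the other extreme, since none of its 119 genes had a peak in ESCs, MEFs, shGFP or shSuz12 cells and 6 had one in brain and 6 others in liver. As these genes form 2 merged windows, they count as few loci and not as many. The authors kept only uniquely mapped reads, and how far such reads reach into this cluster was not measured. Missing peaks there are thus not read as missing 5hmC.

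The merged windows with the most bp summed over the lists were picked by that value and are a description. The first was the stretch from Mir337 to Mir136 in the Dlk1-Dio3 region (chr12:110823000-110834608, mm9), 11 genes long, with 6907 bp in ESCs, 5327 in MEFs, 1713 in brain, 912 in liver, 5870 in shGFP cells and 1941 in shSuz12 cells. Among single genes with established names, Mir671, in an exon of the chondroitin synthesis gene Chpf2, had 2098 bp in ESCs, 2049 in MEFs, 2098 in brain, 2098 in liver, 2098 in shGFP cells and 1628 in shSuz12 cells. Mir26b, in an intron of the phosphatase gene Ctdsp1, had 2085 bp in ESCs, 1785 in MEFs, 2085 in brain, 2085 in liver, 2085 in shGFP cells and 1510 in shSuz12 cells. Both windows were covered from end to end in 4 lists, and their hairpins hold 3 CpGs each, in capitals below.
Mir671: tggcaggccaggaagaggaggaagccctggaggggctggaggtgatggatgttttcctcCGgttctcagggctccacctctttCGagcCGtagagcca
Mir26b: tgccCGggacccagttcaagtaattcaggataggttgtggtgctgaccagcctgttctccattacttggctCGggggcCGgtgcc

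Genes with a peak in 1 of the 4 cell types alone were ranked by the bp covered there, again as a description. Only those with established names are given, and clone-named genes led the brain and liver lists. For ESCs Mir10b and Mir142, described above, were joined by Mir1897, with 1540 bp in ESCs, 1766 bp in shGFP cells and 1242 bp in shSuz12 cells. For MEFs Mir763, in an intron of the growth regulator Hmga2, had 2110 bp in MEFs and 264 bp in shSuz12 cells, Mir125b-2 had 1310 bp, and Mir710 had 1244 bp, the last 2 without a peak in any other list. For brain Mir598, in an intron of Xkr6, had 1607 bp and no peak in any other list. For liver Mir290 had 2083 bp, and Mir1896, in an exon of Zfp187, had 1705 bp.

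Suz12 is a core subunit of the Polycomb complex PRC2, and its knockdown was compared with shGFP at the same windows. Of 374 windows with a shGFP peak, 148 (39.6%, 34.6 to 44.7%) had none in shSuz12 cells, and of tiles with a shGFP peak 43.9% had none. In the other direction, 96 of 322 windows with a shSuz12 peak (29.8%) had none in shGFP cells, against 40.1% of tiles. Split by place, the peak was lost for 34.6% of windows inside (28.2 to 41.5%) against 40.8% of tiles, and for 45.8% of windows outside (38.0 to 53.7%) against 48.5% of tiles. By count of all peaks the loss over miRNA windows was thus no larger than over tiles. The mean coverage was 228 bp in shGFP cells and 140.5 bp in shSuz12 cells, a ratio of 0.615, where all autosomal peaks gave 0.689. Both ratios come from peaks called list by list with different lowest scores, so no size of loss is read from them. At a score of at least 80 in both lists, 197 of 260 windows (75.8%) had lost the peak, against 77.8% of tiles, and the bp ratio was 0.265 over windows and 0.242 over all autosomal peaks. The order of the bp ratios was thus the reverse at this score. Inside, 69.5% of windows (61.2 to 77.0%) had then lost the peak against 75.2% of tiles. Outside, the loss was 83.2% of windows (75.2 to 89.4%) against 81.7% of tiles. Depth and threshold of these lists cannot be told apart from the knockdown.

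Between lists of unperturbed and shGFP cells the windows also differed, since 136 of 445 windows with an ESC peak (30.6%) had none in shGFP cells, against 38.5% of tiles. The genes with the largest change in bp from shGFP to shSuz12 cells were picked by that change and are a description. Mir483, in an intron of the imprinted growth factor gene Igf2 (chr7:149840829-149840901, minus strand), had 2073 bp in ESCs, 684 in MEFs, 0 in brain, 0 in liver, 1593 in shGFP cells and 0 in shSuz12 cells. Mir33, in an intron of Srebf2 and a regulator of cholesterol export, had 2069 bp in ESCs, 285 in MEFs, 1851 in brain, 1973 in liver, 1708 in shGFP cells and 121 in shSuz12 cells. Among the rises from shGFP to shSuz12 cells, Mir666 of the Dlk1-Dio3 region had 773 bp in ESCs, 635 in MEFs, 32 in brain, 0 in liver, 0 in shGFP cells and 842 in shSuz12 cells. Of the genes ranked for the largest rise, the other 4 had no RefSeq symbol.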

How the data were processed

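The authors aligned GLIB-Seq reads to mm9 with Bowtie 0.12.7 after CASAVA 1.8 and called peaks with MACS 1.4.1, library by library, per the submitters' processing notes. By the paper's methods only uniquely mapped reads were kept, and the mappability of windows and tiles was not measured. The score used is the authors' own MACS value for a peak, and neither the threshold nor the control behind a list was stated. Peaks were intersected with miRNA genes of GENCODE M1 (NCBIM37, the assembly of mm9) with Python 3.11.15, numpy 2.4.6 and scipy 1.17.1, and samtools 1.23.1 indexed the genome. A window had a peak with at least 1 bp under one. Tiles without N bases, wholly inside or outside coding spans, gave the background, while windows were placed by the miRNA gene without its flanks. Mature sequences and symbols came from RefSeq (GRCm38.p6), without its coordinates. The steps were tested on simulated data. Alternatives were a score of at least 80, the gene span alone, at least 50% of the window covered, merged windows and RefSeq symbols only, and 5 more on which genes are counted were added after the data were seen. Named genes were up to 4 members of each of 22 families, the 10 merged windows with the most coverage, the 5 genes leading each cell type alone, and the 5 largest falls and rises after knockdown, of which those with established names are given. Members and lists were chosen with earlier results of these data known.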

Additional observations from a re-analysis of the deposited data

How the results depend on the processing

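No paired analysis was possible because single libraries were made. Under the 10 settings below, 33 values stayed within the 95% interval of the share in the report and 107 lay outside it. Those outside are given, and in the changes below the cause was not tested unless the construction shows it. With a common score of at least 80, chosen with earlier results of these data known, the share inside was 15.6% in MEFs, 13.1% in brain, 19.2% in shGFP cells and 8.46% in shSuz12 cells, and the share outside was 8.98% in MEFs, 3.81% in brain, 16.2% in shGFP cells and 4.08% in shSuz12 cells. Then 75.8% of windows with a shGFP peak had none in shSuz12 cells and 1.77% had a peak in all 4 cell types. With the gene span alone, which is a shorter target, the share inside was 18.3% in ESCs, 10.6% in MEFs, 17.7% in brain, 19.2% in liver, 12.7% in shGFP cells and 8.32% in shSuz12 cells, and the share outside was 14.4% in ESCs, 9.66% in MEFs, 8.84% in brain, 9.66% in liver, 11.8% in shGFP cells and 8.57% in shSuz12 cells. Then 55.6% of windows with a shGFP peak had none in shSuz12 cells and 2.32% had a peak in all 4 cell types. With at least 50% of the window covered, a stricter rule, the share inside was 16.8% in ESCs, 9.14% in MEFs, 14.2% in brain, 16.6% in liver, 9.41% in shGFP cells and 4.09% in shSuz12 cells, and the share outside was 10.3% in ESCs, 6.26% in MEFs, 5.58% in brain, 8.30% in liver, 7.21% in shGFP cells and 3.13% in shSuz12 cells. Then 66.4% of windows with a shGFP peak had none in shSuz12 cells and 1.50% had a peak in all 4 cell types. With overlapping windows merged and counted once, the share inside was 40.3% in ESCs, 32.6% in MEFs, 38.9% in brain, 39.1% in liver, 33.4% in shGFP cells and 28.5% in shSuz12 cells. With RefSeq symbols only, the share outside was 45.7% in ESCs, 38.8% in MEFs, 35.6% in brain, 33.0% in liver, 38.8% in shGFP cells and 36.2% in shSuz12 cells. Then 32.0% of windows with a shGFP peak had none in shSuz12 cells and 10.2% had a peak in all 4 cell types. The next 5 settings were added after the data had been seen. With only the 440 genes that hold a RefSeq hairpin by sequence, from a table without hairpins of the Sfmbt2 genes, the share inside was 56.6% in ESCs, 39.6% in MEFs, 48.5% in brain, 48.5% in liver, 47.2% in shGFP cells and 40.9% in shSuz12 cells, and the share outside was 44.4% in ESCs, 36.6% in MEFs, 31.2% in brain, 30.2% in liver, 38.0% in shGFP cells and 35.1% in shSuz12 cells. Then 31.7% of windows with a shGFP peak had none in shSuz12 cells and 13.2% had a peak in all 4 cell types. Without the 119 Sfmbt2 genes, the share inside was 41.4% in ESCs, 33.4% in MEFs, 38.9% in brain, 39.3% in liver, 33.9% in shGFP cells and 29.3% in shSuz12 cells. With RefSeq symbols and without the Sfmbt2 genes, the share inside was 48.0% in ESCs, 37.1% in MEFs, 45.0% in brain, 44.6% in liver, 39.6% in shGFP cells and 33.7% in shSuz12 cells, and the share outside was 45.7% in ESCs, 38.8% in MEFs, 35.6% in brain, 33.0% in liver, 38.8% in shGFP cells and 36.2% in shSuz12 cells. Then 32.0% of windows with a shGFP peak had none in shSuz12 cells and 12.1% had a peak in all 4 cell types. Without the Sfmbt2 and Dlk1-Dio3 genes, the share inside was 40.8% in ESCs, 32.7% in MEFs, 38.5% in brain, 39.1% in liver, 33.2% in shGFP cells and 28.9% in shSuz12 cells, and the share outside was 16.2% in shSuz12 cells. With RefSeq symbols and without both clusters, the share inside was 46.4% in ESCs, 35.2% in MEFs, 43.9% in brain, 44.4% in liver, 37.8% in shGFP cells and 32.7% in shSuz12 cells, and the share outside was 42.8% in ESCs, 32.4% in MEFs, 38.6% in brain, 42.1% in liver, 35.9% in shGFP cells and 30.3% in shSuz12 cells. Then 32.5% of windows with a shGFP peak had none in shSuz12 cells and 12.9% had a peak in all 4 cell types. The share inside divided by that outside lay between 1.19 in MEFs and 2.01 in liver in the report. At a score of at least 80 it was 1.73 in MEFs, 3.44 in brain, 1.19 in shGFP cells and 2.07 in shSuz12 cells. With at least 50% covered it reached 2.54 in brain. It lay between 1.54 in MEFs and 2.67 in brain with windows merged, and between 1.42 in MEFs and 2.35 in liver without the Sfmbt2 genes. Without both clusters it lay between 1.58 in MEFs and 2.37 in brain. It was 0.777 in ESCs, 0.708 in MEFs, 0.966 in brain, 1.06 in liver, 0.755 in shGFP cells and 0.689 in shSuz12 cells with RefSeq symbols, and 1.05 in ESCs, 0.956 in MEFs, 1.26 in brain, 1.35 in liver, 1.02 in shGFP cells and 0.931 in shSuz12 cells when the Sfmbt2 genes were left out as well. It was 1.09 in ESCs, 1.09 in MEFs, 1.14 in brain, 1.06 in liver, 1.05 in shGFP cells and 1.08 in shSuz12 cells when the Dlk1-Dio3 genes were left out too, and 1.27 in ESCs, 1.08 in MEFs, 1.55 in brain, 1.60 in liver, 1.24 in shGFP cells and 1.16 in shSuz12 cells with hairpins by sequence, so the order of inside and outside depends on which annotated genes are counted. With the gene span alone it was 0.971 in shSuz12 cells.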

Other observations

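The 108 annotated miRNA genes of chromosome X were outside the autosomal set. Their windows had a peak in 4 genes in MEFs (3.70%, exact 95% interval 1.02 to 9.21%), in 1 gene in shGFP cells (0.926%), and in 0 genes in ESCs, brain, liver and shSuz12 cells, for which the upper bound of the interval was 3.36%. The lists hold few peaks on this chromosome, 328 in ESCs, 757 in MEFs, 22 in brain, 104 in liver, 351 in shGFP cells and 454 in shSuz12 cells, so the low counts cannot be read as a property of the miRNA genes.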
